A study of Mus musculus with 4 samples.

Results

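The cells described here are the neutrophils of aged, amyloid-bearing mouse cortex: 757 of 15451 deposited cells, taken by the class the authors gave each cell. CD45+ immune cells were sorted from digested cortices of 18-month-old mice and profiled by droplet single-cell RNA sequencing, which counts transcripts as unique molecular identifiers (UMIs). The ADAM mice carried the APP/PS1 transgenes and had no Axl and no Mertk (APP/PS1 Axl-/- Mertk-/-). The AD mice carried APP/PS1 with both receptor genes intact, so that both genotypes shared the amyloid transgenes and no group without amyloid is described. Each genotype had 2 libraries, ADAM 1 and ADAM 2 and then AD 1 and AD 2, and each library pooled 2 cortices. The labels give no sex, perfusion or promoter, and the deletions are not described as limited to a cell type.

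Neutrophils are short-lived phagocytes that form in bone marrow, circulate in blood and enter tissue along chemokine gradients. As they mature they fill successive granule types, so the transcripts of secondary granules mark younger cells, while G-CSF receptor, Cxcr2 and cytokine transcripts mark more mature ones. Type I interferon adds a further programme of antiviral transcripts in mature cells. Axl and Mertk are receptor tyrosine kinases with which phagocytes recognise dying cells.

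The depth was unequal between libraries. Neutrophils gave 38772 UMIs from 11 cells in ADAM 1 and 1882320 UMIs from 580 cells in ADAM 2, against 86258 UMIs from 30 cells in AD 1 and 371096 UMIs from 136 cells in AD 2. Thus 76.6% of all neutrophils came from ADAM 2, and the ADAM 1 values rest on 11 cells. The median neutrophil held 2089 and 2691.5 UMIs in ADAM 1 and ADAM 2, against 1704 and 2084.5 UMIs in AD 1 and AD 2. No cell barcode was shared between the neutrophils of any pair of libraries. ADAM 2 also stood apart in haemoglobin transcripts, which made up 4489 CPM (UMIs scaled to the same total in each set of cells, counts per 1000000) of its microglia, against at most 0.612 CPM in the microglia of the other 3 libraries, although the 12 endothelial cells of ADAM 1 held 95279 CPM and the 21 of ADAM 2 38503 CPM, against 0 in those of both AD libraries. In neutrophils of ADAM 2 they stood at 96.2 CPM and in those of the other 3 libraries at 0. Axl in microglia stood at 5.37 and 7.21 CPM in ADAM 1 and ADAM 2, against 103 and 67.2 CPM in AD 1 and AD 2. The 3′ tag of Mertk was present in all 4, at 246 and 274 CPM in ADAM 1 and ADAM 2, against 274 and 296 CPM in AD 1 and AD 2, so it does not check the deletion.

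The class carried its 4 markers in every library. S100a8 and S100a9, the subunits of the calcium-binding protein calprotectin, together made up 12.4% and 21.3% of neutrophil UMIs in ADAM 1 and ADAM 2, against 20.4% and 13% in AD 1 and AD 2. Retnlg, a resistin-like secreted protein, reached 8408 and 30305 CPM in ADAM 1 and ADAM 2, against 6214 and 14708 CPM in AD 1 and AD 2. Csf3r, the G-CSF receptor, lay between 555 and 1024 CPM in the 4 libraries. All 4 genes overlapped between the genotypes, and their class was partly made from them, so these levels are a description. Ly6g, the surface antigen used to sort mouse neutrophils, had 0 UMIs in the 11 cells of ADAM 1, which allows up to 77.4 CPM, and stood at 235 CPM in ADAM 2, against 336 and 146 CPM in AD 1 and AD 2. Of the defining markers of other cells, those of T cells summed to at most 78.1 CPM in neutrophils, against at least 4115 CPM in T and NK cells. Basophil and mast cell markers summed to at most 1.59 CPM and the 3 eosinophil markers that were measured to at most 26.9 CPM. Microglial markers were higher, at 3533 and 3851 CPM in neutrophils of ADAM 1 and ADAM 2, against 6411 and 5190 CPM in AD 1 and AD 2, and at 363 to 626 CPM in T and NK cells.

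Neutrophil number differed more between libraries of 1 genotype than between the genotypes. Neutrophils were 11 of 3382 cells with a class in ADAM 1, or 0.325% (exact 95% binomial interval 0.162 to 0.581%), and 580 of 3777 in ADAM 2, or 15.4% (14.2 to 16.5%). They were 30 of 3107 in AD 1, or 0.966% (0.652 to 1.38%), and 136 of 4362 in AD 2, or 3.12% (2.62 to 3.68%). The 2 ADAM libraries therefore lay at the lowest and the highest share, with both AD libraries between them. The mean share was 7.84% ± 10.6 in ADAM and 2.04% ± 1.52 in AD (SD, n = 2 each), and the exact permutation p was 1, where 2 against 2 libraries cannot go below 0.33. The log2 fold of cell number was 1.94 (SE 1.5, adjusted p = 0.442 over 9 classes, edgeR). Without ADAM 1 it was 2.90, and without ADAM 2 it was -2.65, so the direction rests on which ADAM library is kept. A larger share of neutrophils cannot be told apart from fewer other cells. Monocytes, which share the blood route, took 4.38% and 5.82% in ADAM 1 and ADAM 2, against 2.93% and 2.38% in AD 1 and AD 2. Their log2 fold was 0.94 (adjusted p = 0.211, edgeR). DESeq2, run here with the spread estimated for each class alone, called it (0.95, adjusted p = 0.00116). That fit also called B cells (-1.01, adjusted p = 0.00128, DESeq2) and endothelial cells (2.30, adjusted p = 0.00116, DESeq2). A spread from 2 against 2 libraries of 1 class is uncertain, so the call adds little. A neutrophil marker rule (at least 1% S100a8 and S100a9 with a Csf3r or Retnlg UMI) took 84 monocytes of ADAM 2. It took 1 in ADAM 1, and 0 and 4 in AD 1 and AD 2. With these counted as neutrophils the monocyte fold was 0.61 (adjusted p = 0.259, edgeR).

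**Figure D1:**
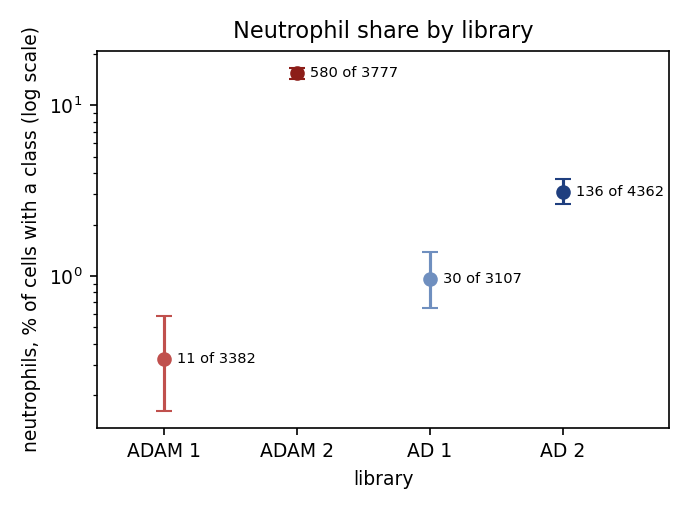
Neutrophils as a percent of cells with a class (vertical axis, log scale) in each library (horizontal axis), with exact 95% binomial intervals and the cell numbers beside the points. ADAM 1 at 0.325% and ADAM 2 at 15.4% lie on either side of AD 1 at 0.966% and AD 2 at 3.12%.

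The genes that set neutrophils of ADAM 2 furthest above every other class with at least 20 cells there began with the class marker Retnlg. The 7 oligodendrocytes of ADAM 2 were thus left out. Retnlg stood 3.68 log2 units above the highest other class, the 21 endothelial cells, and Mmp9, the gelatinase of tertiary granules, 3.65 units above monocytes. Mmp9 was at 542 and 1180 CPM in ADAM 1 and ADAM 2, against 916 and 741 CPM in AD 1 and AD 2. Hdc, which makes histamine, was at 671 and 956 CPM in ADAM 1 and ADAM 2, against 1310 and 1361 CPM in AD 1 and AD 2. Cxcr2, the receptor that leads neutrophils towards CXC chemokines, lay between 487 and 860 CPM. The same rule also named Stfa2 and Stfa2l1, which are cystatin-type protease inhibitors, the glucose transporter Slc2a3, the lipolysis inhibitor G0s2, the transcription factor Mxd1 and Padi4, the enzyme that citrullinates histones in extracellular traps.

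The genes lower in neutrophils than in monocytes of ADAM 2 began with Saa3, an acute-phase apolipoprotein. It was at 19.7 CPM in neutrophils against 6041 CPM in monocytes, a log2 ratio of -8.19. Monocytes of ADAM 1 held 336 CPM of Saa3, and those of AD 1 and AD 2 held 5.94 and 1.69 CPM. This ratio therefore describes ADAM 2 alone. The log2 ratio was -6.10 for Ccr2, the receptor for Ccl2, and -7.67 and -6.28 for the matrix proteins Vcan and Fn1. Over 27 sets of cells, each 1 class in 1 library, the gene whose level followed that of S100a8 most closely was S100a9 (Spearman's rho 0.92), followed by Lcn2 (0.91), Cebpe (0.90), Cxcr2 (0.90) and Pi16 (0.89) among 3684 genes. These sets share libraries and may share free RNA, so the order is a description.

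S100a8 was also counted outside the class, most of all in ADAM 2. In T and NK cells S100a8 stood at 9.46 and 774 CPM in ADAM 1 and ADAM 2, against 5.25 and 12 CPM in AD 1 and AD 2. The share of T and NK cells with at least 1 S100a8 UMI was 3.39% and 82.2% in ADAM 1 and ADAM 2, against 1.66% and 4.47% in AD 1 and AD 2. Thinned to 500 UMIs a cell, the 2 ADAM shares were 0.295% and 27.1%, against 0.294% and 0.725%. The library with the most neutrophils had the highest share. Its median T or NK cell held 0.102% of its UMIs on S100a8 and S100a9, while 7 cells lay over 1% and 2 over 5%. Whether such UMIs were background or came from the cells themselves was not tested.

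Monocytes of ADAM 2 held more than that level, with 39233 CPM of S100a8, against 2549 CPM in ADAM 1 and 75.3 and 947 CPM in AD 1 and AD 2. In ADAM 2, 119 of 220 monocytes had over 1% of their UMIs on S100a8 and S100a9, and 22 of them held 50% of all such monocyte UMIs. Retnlg per S100a8 UMI was 0.297 in neutrophils of ADAM 2, 0.189 in its T and NK cells and 0.183 in its microglia. It was 0.0501 in its monocytes and 0.0024 in its proliferating cells. Macrophages and endothelial cells of ADAM 2 stood at 0.126 and 0.292. The ratio was not fixed among neutrophils either, at 0.127 in ADAM 1 and at 0.0570 and 0.248 in AD 1 and AD 2. Whether the S100a8 of monocytes and proliferating cells was their own was not tested.

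**Figure D2:**
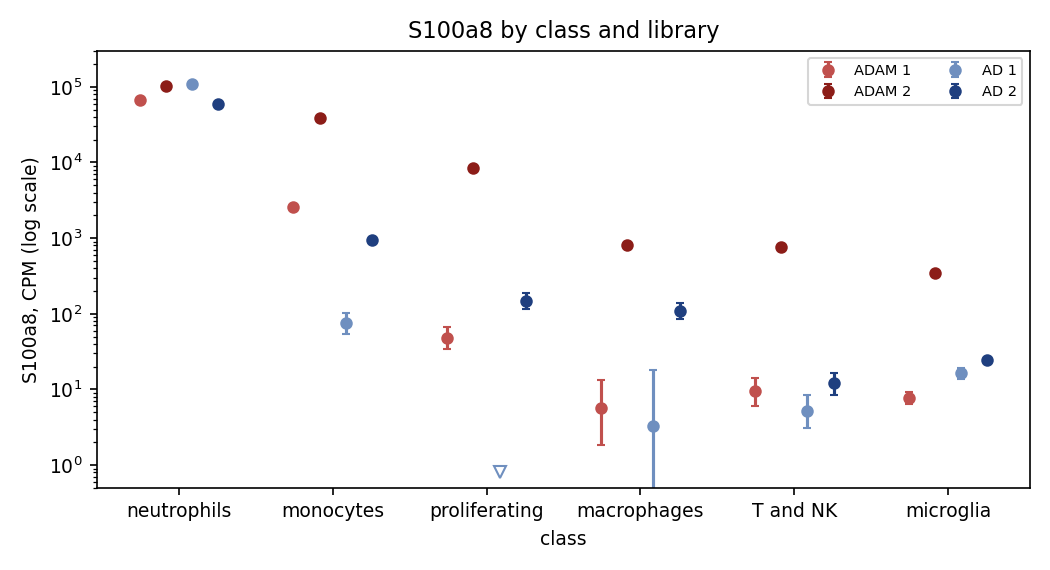
S100a8 in CPM (vertical axis, log scale) by class (horizontal axis) and library (colour), with exact 95% Poisson intervals where wider than the point; an open triangle marks 0 UMIs. Neutrophils lie between 59349 and 109068 CPM in all libraries, while the other classes are highest in ADAM 2, where T and NK cells reach 774 CPM.

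In microglia, which outnumber neutrophils in every library, the 4 class markers passed no test between the genotypes. S100a8 had a log2 fold of 3.39 (SE 2.45), S100a9 of 3.69 (SE 2.66) and Retnlg of 2.83 (SE 2.54), each with an adjusted p of 1 by edgeR, where 5 of 11924 genes were called, or 0.0419%. The fold rested on ADAM 2. Without it the 3 folds were -1.19, -1.20 and -2.40.

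Neutrophils were not uniform in their granule transcripts. Camp, Ngp and Ltf encode cathelicidin, neutrophilic granule protein and lactoferrin, all contents of secondary granules. Cells with at least 1% of their UMIs on these 3 genes, a threshold chosen after seeing the data, were 0 of 11 in ADAM 1 (which allows a share of up to 28.5%), 85 of 580 in ADAM 2 (14.7%, exact interval 11.9 to 17.8%), 4 of 30 in AD 1 (13.3%, 3.76 to 30.7%) and 2 of 136 in AD 2 (1.47%, 0.179 to 5.21%). They held 88.5%, 98.1% and 99.1% of the Camp, Ngp and Ltf UMIs of neutrophils in ADAM 2, AD 1 and AD 2. In ADAM 2, 73 cells lay within a factor of 2 of the threshold, so that there the class is a range rather than a separate type. Ngp had a UMI in 55.7% of ADAM 2 neutrophils and in 6.38% of its T and NK cells.

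The granule-rich cells of the 3 libraries shared further traits that the threshold did not use, given without a test because cells of 1 library are not replicates. Cebpe, the transcription factor that drives secondary granule genes, was at 75.0 CPM in granule-rich cells of ADAM 2 and at 12.7 CPM in its other neutrophils. In AD 1 it was at 405 CPM against 45.1 CPM (8 against 3 UMIs), and in AD 2 at 447 CPM against 22.5 CPM (7 against 8 UMIs). Il1b, the inflammatory cytokine, ran the other way, at 406 CPM in granule-rich cells against 4706 CPM in the other neutrophils of ADAM 2, at 0 against 6463 CPM in AD 1, and at 63.9 against 8764 CPM in AD 2. Csf3r was likewise lower in granule-rich cells, at 168 against 655 CPM in ADAM 2, 203 against 1022 CPM in AD 1 and 63.9 against 1066 CPM in AD 2. Cxcr2 was at 323 against 646 CPM, 101 against 601 CPM and 383 against 881 CPM in the same libraries. The granule-rich values of AD 1 and AD 2 rest on few counts. They came from 0 and 1 UMIs of Il1b, 4 and 1 of Csf3r, and 2 and 6 of Cxcr2. Granule-rich cells held more UMIs, with medians of 4060, 3342.5 and 7823.5 in ADAM 2, AD 1 and AD 2, against 2456, 1460 and 2046.5 in the other neutrophils. Their Mki67 and Top2a, transcripts of dividing cells, were at 0 UMIs in all 3 libraries, where AD 1 and AD 2 gave 4 and 2 such cells. This did not set them apart. Mki67 had 2, 1 and 1 UMIs in the other neutrophils of ADAM 2, AD 1 and AD 2, and Top2a 4, 0 and 0. Mpo and Elane, enzymes of the primary granules made at the promyelocyte stage, had 4 UMIs each in ADAM 2 and 0 in the other 3 libraries.

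**Figure D3:**
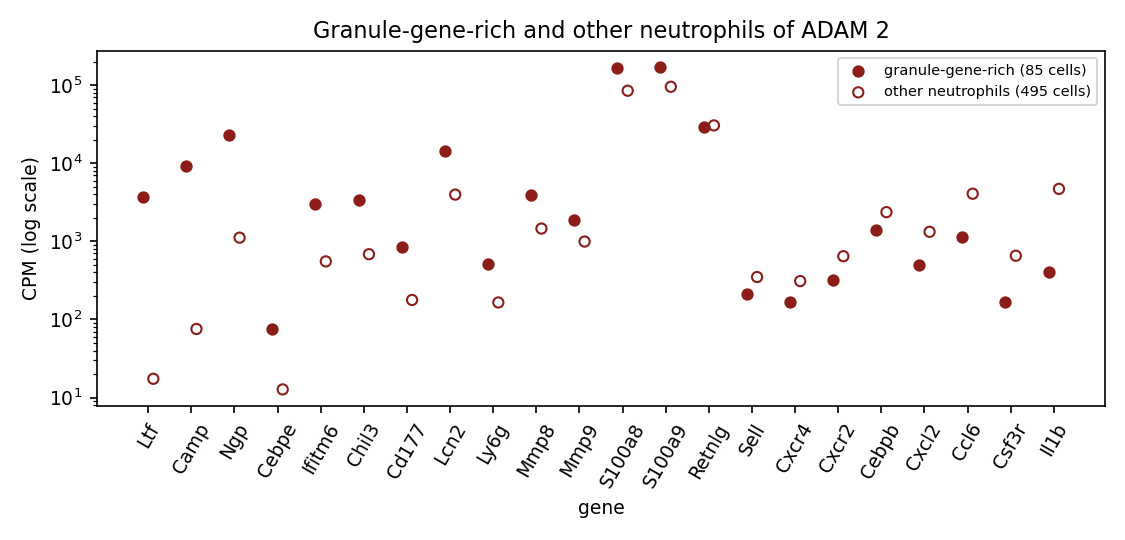
CPM (vertical axis, log scale) of 22 genes (horizontal axis) in granule-rich neutrophils of ADAM 2 (filled) and its other neutrophils (open). Granule transcripts and Cebpe lie higher in the filled points, and Csf3r and Il1b lower, with Il1b at 406 CPM against 4706 CPM.

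The summed level of the granule genes followed these few cells. Camp was at 0 and 1982 CPM in ADAM 1 and ADAM 2, against 15210 and 1819 CPM in AD 1 and AD 2. Ngp was at 0 and 5635 CPM in ADAM 1 and ADAM 2, against 11686 and 1773 CPM in AD 1 and AD 2. Lcn2, the siderophore-binding lipocalin of the same granules, was less uneven, at 1470 and 6111 CPM in ADAM 1 and ADAM 2, against 6168 and 2010 CPM in AD 1 and AD 2. The genotypes overlapped in all 8 secondary granule genes of the list, and none passed the test. Over all 2792 genes, 18% lay lower in both ADAM libraries than in both AD libraries and 12% higher. The list of immature and cycling genes had 4 of 9 genes tested, Camp, Ngp, Chil3 and Tuba1b, all with negative folds and a median of -0.67, none of them called. Its median was 1.38 without the granule-rich cells. Those cells were picked by their Camp, Ngp and Ltf, and Camp and Ngp are among the tested genes of the list. This median therefore depends on the selection and says nothing about the genotypes.

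Between the genotypes, no neutrophil gene passed the test over all genes. Of 2792 genes tested with edgeR on UMIs summed per library, 0 had an adjusted p under 0.05 (0%), while 119 had an unadjusted p under 0.05, of which 56 were higher in ADAM (2.01%) and 63 lower (2.26%). DESeq2 called 1 gene, Isg15 (0.0358%). In data simulated at these depths with 4-fold changes, 29 of 81 changed genes were recovered (35.8%), and with 2-fold changes 2 of 92 (2.17%), so that the fit sees few changes of this size. The labels name the 2 libraries of a genotype biological replicates, and the p-values measure the spread between these pools.

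Isg15, a ubiquitin-like protein induced by interferon, had the smallest p in neutrophils. It was at 155 and 202 CPM in ADAM 1 and ADAM 2 (6 and 381 UMIs), against 800 and 1277 CPM in AD 1 and AD 2 (69 and 474 UMIs). Both ADAM libraries lay below both AD libraries, which held for 502 of all 2792 genes (18%). The log2 fold was -2.41 (SE 0.36, adjusted p = 0.0511, edgeR), just above the threshold, and Isg15 passed under DESeq2 (-2.43, adjusted p = 0.00796). Under all 9 other settings, DESeq2 included, its fold lay between -2.98 and -2.16. With all 4 libraries kept, it also passed under the replicate block (adjusted p = 2.8e-04) and with no filter on low counts (adjusted p = 0.0150), both by edgeR. It did not pass with RLE scaling (adjusted p = 0.0503, edgeR). Same-numbered libraries share only a number. A fit without 1 library leaves 1 genotype with no spread of its own, so passes there are not counted.

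The other genes of the interferon list pointed the same way. Of its 13 genes 12 were tested, all 12 had negative folds, against 49.2% of all tested genes, and the median fold was -1.26, against 0.0072 over all genes. At an unadjusted p under 0.05, 8 of the 12 were lower and 0 higher, against 2.26% and 2.01% of all genes. None passed after adjustment in the fit over all 4 libraries. Other settings called 1 of them under DESeq2 (0.0358% of all genes), 3 under the replicate block (0.501%), 3 with no filter on low counts (0.0862%), 3 without AD 1 (0.31%), 5 without ADAM 1 (0.896%), 4 without ADAM 2 (1.77%) and 1 without AD 2 (0.197%). Ifit3, an RNA-binding antiviral protein, was at 0 and 55.3 CPM in ADAM 1 and ADAM 2, against 197 and 528 CPM in AD 1 and AD 2 (log2 fold -2.87, SE 0.59, adjusted p = 0.158, edgeR). Its relative Ifit1 was at 0 and 36.1 CPM in ADAM 1 and ADAM 2, against 128 and 294 CPM in AD 1 and AD 2 (-2.66, SE 0.54, adjusted p = 0.134, edgeR). The zeros of ADAM 1 allow up to 77.4 CPM each. With all 4 libraries kept, Ifit3 and Ifit1 passed under the replicate block (adjusted p = 2.8e-04 for Ifit3 and 0.00138 for Ifit1, edgeR) and with no filter on low counts. They failed under DESeq2 and RLE scaling. Without ADAM 2 the ADAM side is at 0, and the fitted folds of -9.05 and -8.29 are then no measure of size.

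Both ADAM libraries lay below both AD libraries in 8 of the 12, against 18% of all genes. Irf7, the transcription factor that amplifies type I interferon, was at 103 and 73.8 CPM in ADAM 1 and ADAM 2, against 162 and 278 CPM in AD 1 and AD 2 (-1.47, SE 0.42, adjusted p = 0.660, edgeR). Oasl2, of the oligoadenylate synthetase family, was at 181 and 174 CPM in ADAM 1 and ADAM 2, against 336 and 544 CPM in AD 1 and AD 2 (-1.30, SE 0.37, adjusted p = 0.660, edgeR). Rsad2, the antiviral enzyme viperin, was at 0 and 148 CPM in ADAM 1 and ADAM 2, against 81.2 and 450 CPM in AD 1 and AD 2, so that ADAM 2 exceeded AD 1. Slfn4 and Isg20 also overlapped between the genotypes, while Ifi47, Gbp2 and Ifitm3 did not. The members and this list were chosen with earlier results of the same libraries known, so the list is no independent evidence of its direction.

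The promoters of the 3 genes with the lowest folds on the list are shown because they carry an element through which type I interferon acts. The interferon-stimulated response element binds the ISGF3 complex and IRF factors. Its core was searched as a pair of GAAA half-sites with 2 bases between them, on both strands, and capitals mark it, with overlapping matches merged into 1 run. The core was present in 1131 of 32851 promoter windows of the mouse genome (3.44%), and in 6 of the 15 windows that matched 12 of the 13 interferon genes, namely those of Ifit1, Ifit3, Isg15, Rsad2, Gbp2 and Ifitm3. Each window runs from 250 bases before the gene start to 50 after it, 5′ to 3′ on the gene's strand, from RefSeq on GRCm38.p6. Isg15 lies on the minus strand at chr4:156200769-156201068, Ifit1 on the plus strand at chr19:34640639-34640938 and Ifit3 on the plus strand at chr19:34583279-34583578.
Isg15: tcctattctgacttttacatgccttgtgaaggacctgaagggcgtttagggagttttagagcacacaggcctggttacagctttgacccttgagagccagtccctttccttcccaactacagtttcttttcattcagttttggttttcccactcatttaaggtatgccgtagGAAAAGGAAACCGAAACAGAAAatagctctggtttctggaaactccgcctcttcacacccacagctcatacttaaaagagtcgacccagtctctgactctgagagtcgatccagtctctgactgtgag
Ifit1: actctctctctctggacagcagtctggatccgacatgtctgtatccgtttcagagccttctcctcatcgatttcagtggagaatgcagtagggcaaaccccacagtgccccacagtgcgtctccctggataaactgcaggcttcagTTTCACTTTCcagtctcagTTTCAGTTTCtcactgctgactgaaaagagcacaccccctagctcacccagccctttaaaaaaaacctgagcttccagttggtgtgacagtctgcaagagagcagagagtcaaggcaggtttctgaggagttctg
Ifit3: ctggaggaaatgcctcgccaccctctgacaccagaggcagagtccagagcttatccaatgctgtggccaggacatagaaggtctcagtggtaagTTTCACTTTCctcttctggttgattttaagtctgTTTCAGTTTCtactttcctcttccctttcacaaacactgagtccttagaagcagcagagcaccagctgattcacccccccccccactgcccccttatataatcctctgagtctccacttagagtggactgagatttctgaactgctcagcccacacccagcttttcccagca
Isg15 holds 3 overlapping cores in 1 run, and Ifit1 and Ifit3 hold 2 separate cores each. A match is a description of these letters, and no binding was measured. The list was made of interferon genes, so its share of windows with a core says nothing about the folds.

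Cell by cell, the interferon transcripts were unevenly spread. An Isg15 UMI was found in 27.3% and 10.0% of neutrophils of ADAM 1 and ADAM 2 after thinning to 500 UMIs a cell, against 33.3% and 44.1% in AD 1 and AD 2. Before thinning the shares were 36.4% and 28.1% in ADAM 1 and ADAM 2, against 53.3% and 70.6% in AD 1 and AD 2. In T and NK cells, which express some Isg15, the thinned shares were 6.93% and 4.88% in ADAM 1 and ADAM 2, against 5.48% and 7.49% in AD 1 and AD 2. The share in ADAM 1 rests on 3 of 11 cells (exact interval 6.02 to 61.0%) and covers the shares of both AD libraries. Cells with at least 0.2% of their UMIs on Ifit1, Ifit3, Isg15 and Rsad2 were 0 of 11 in ADAM 1, which allows a share of up to 28.5%. They were 42 of 580 in ADAM 2 (7.24%, 5.27 to 9.66%), 9 of 30 in AD 1 (30%, 14.7 to 49.4%) and 56 of 136 in AD 2 (41.2%, 32.8 to 49.9%). The genes and the threshold were chosen after seeing the values, and 65 cells of ADAM 2 and 43 of AD 2 lay within a factor of 2 of it.

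**Figure D4:**
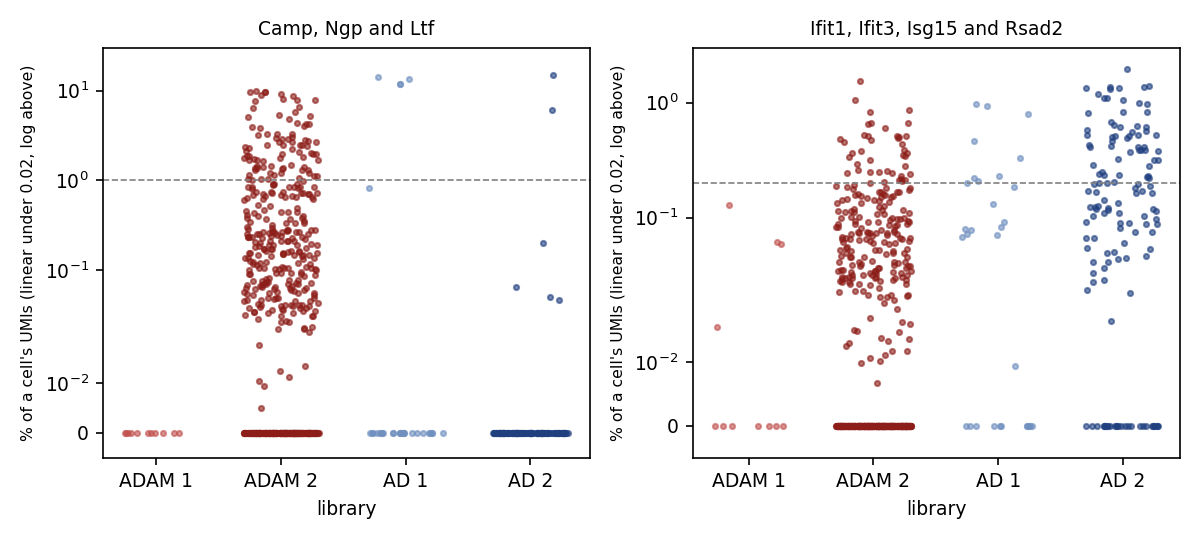
Percent of each neutrophil's UMIs (vertical axis, linear under 0.02 and log above) on granule genes (left) and on interferon genes (right), 1 point a cell, by library; the dashed lines mark 1% and 0.2%. Cells over the line are 85 in ADAM 2, 4 in AD 1 and 2 in AD 2 on the left, and 42, 9 and 56 in the same libraries on the right, with 0 in ADAM 1 in both panels.

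Granule-rich cells held little Isg15, at 124 CPM in ADAM 2 against 223 CPM in its other neutrophils, and 0 UMIs in AD 1 and AD 2. With these cells left out, an alternative added after seeing the data, 15 of 2654 genes were called (0.565%), 4 higher and 11 lower in ADAM. Isg15 (-2.48, adjusted p = 4.8e-05), Ifit1 (-2.61, adjusted p = 0.00228), Ifit3 (-2.77, adjusted p = 0.00757) and Slfn5 (-2.23, adjusted p = 0.00487) were among the lower ones by edgeR. The median of the interferon list was then -1.28.

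Microglia of the same libraries showed no such direction. Isg15 in microglia was at 42.6 and 52.4 CPM in ADAM 1 and ADAM 2, against 33.8 and 38.5 CPM in AD 1 and AD 2 (log2 fold 0.45, SE 0.14, adjusted p = 1, edgeR). All 12 tested interferon genes had positive folds in microglia, with a median of 0.37, and 0 were called, where 51% of all 11924 genes had positive folds, the median was 0.0035 and 5 genes were called. The difference of the 2 genotype differences, tested in 1 edgeR fit over both cell types that was added after seeing the data, was called for 9 of 2792 genes, all lower in neutrophils (0.322%). It was -2.84 for Isg15 (SE 0.34, adjusted p = 4.9e-04), -2.77 for Slfn5 (SE 0.40, adjusted p = 0.00274) and -2.25 for Irf7 (SE 0.42, adjusted p = 0.0306). Slfn5, an interferon-induced Schlafen protein named after its value was seen, was at 25.8 and 46.2 CPM in neutrophils of ADAM 1 and ADAM 2, against 174 and 280 CPM in AD 1 and AD 2. Without AD 1, without AD 2 or without ADAM 2 none of the 3 passed, although all 3 kept their sign.

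Isg15 in other myeloid cells is given for its level, with no test. Monocytes held 64.1 and 69.3 CPM in ADAM 1 and ADAM 2, against 297 and 222 CPM in AD 1 and AD 2. How often other genes separated the genotypes in monocytes was not counted. The neutrophil marker rule took 1 and 84 of these monocytes in ADAM 1 and ADAM 2, against 0 and 4 in AD 1 and AD 2. Macrophages held 77.7 and 118 CPM in ADAM 1 and ADAM 2, against 81.6 and 73.0 CPM in AD 1 and AD 2, and the genotypes overlapped. T and NK cells held 185 and 152 CPM in ADAM 1 and ADAM 2, against 152 and 212 CPM in AD 1 and AD 2, a range that neutrophils of both ADAM libraries met and those of both AD libraries exceeded.

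**Figure D5:**
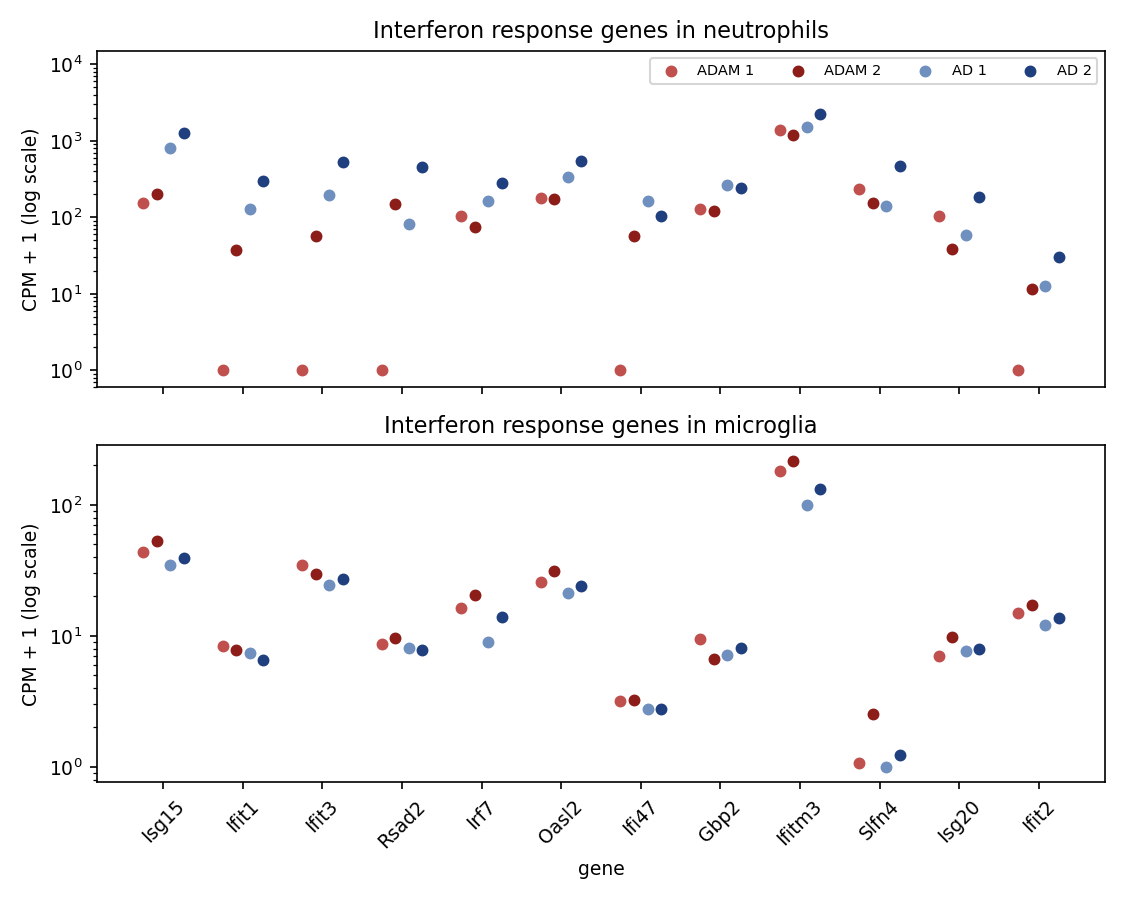
Interferon response genes, 12 of the list of 13 (horizontal axis), in neutrophils (top) and microglia (bottom), as CPM + 1 (vertical axis, log scale), with 1 point a library. In neutrophils Isg15 is at 155 and 202 CPM in ADAM 1 and ADAM 2, below 800 and 1277 CPM in AD 1 and AD 2, while in microglia it is at 33.8 to 52.4 CPM throughout.

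No gene of the other functional groups was called in the fit over all 4 libraries. Among chemotactic receptors, 8 of 10 were tested, with 6 positive and 2 negative folds and a median of 0.11. Cxcr2 was at 774 and 580 CPM in ADAM 1 and ADAM 2, against 487 and 860 CPM in AD 1 and AD 2. Fpr1, which senses bacterial formyl peptides, was at 335 and 196 CPM in ADAM 1 and ADAM 2, against 92.7 and 124 CPM in AD 1 and AD 2, without overlap and with an adjusted p of 0.988 by edgeR. In the adhesion list, 10 of 11 genes were tested, with 6 positive and 4 negative folds and a median of 0.21. Both ADAM libraries lay above both AD libraries in 4 of the 10 and below in 1, against 12% and 18% of all genes. Selplg, the ligand for selectins on vessel walls, ran against the median. It was at 774 and 787 CPM in ADAM 1 and ADAM 2, against 1078 and 1320 CPM in AD 1 and AD 2.

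Cytokine transcripts were led by Il1b and the chemokines Ccl6 and Cxcl2. Il1b was at 4771 and 3823 CPM in ADAM 1 and ADAM 2, against 4985 and 8397 CPM in AD 1 and AD 2, so that both ADAM libraries were below both AD libraries (adjusted p = 1, edgeR). Ccl6 was at 1625 and 3479 CPM in ADAM 1 and ADAM 2, against 1785 and 3514 CPM in AD 1 and AD 2, and Il10 was at 0 UMIs in all 4. The list of 16 had 10 tested genes and a median of 0.087.

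Among pattern and Fc receptors, 13 of 14 were tested, with a median of 0.17. Cd14, the co-receptor for lipopolysaccharide, was at 671 and 412 CPM in ADAM 1 and ADAM 2, against 116 and 302 CPM in AD 1 and AD 2 (adjusted p = 0.847, edgeR). Clec7a, the beta-glucan receptor, was at 438 and 273 CPM in ADAM 1 and ADAM 2, against 510 and 620 CPM in AD 1 and AD 2 (adjusted p = 1, edgeR). The oxidase that makes superoxide had all 6 subunits tested and a median of 0.19. Its membrane subunit Cyba was the most even gene of the group, at 1522 and 1596 CPM in ADAM 1 and ADAM 2, against 1577 and 1563 CPM in AD 1 and AD 2.

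Survival genes and transcription factors had medians of -0.16 each, with 9 of 11 and 12 of 14 genes tested. Mcl1, which keeps neutrophils alive, was at 1522 and 1637 CPM in ADAM 1 and ADAM 2, against 1380 and 2342 CPM in AD 1 and AD 2. Cebpb, a factor of emergency granulopoiesis, was at 2347 and 2172 CPM in ADAM 1 and ADAM 2, against 1681 and 3296 CPM in AD 1 and AD 2. Both overlapped between the genotypes. Tertiary granule genes had a median of 0.10 over 5 tested genes, and Mmp8, neutrophil collagenase, had the largest fold of them. It was at 593 and 1967 CPM in ADAM 1 and ADAM 2, against 406 and 313 CPM in AD 1 and AD 2 (log2 fold 1.98, SE 0.60, adjusted p = 0.847, edgeR). The value rested on ADAM 2, with a fold of 0.52 without it and of 2.65 without ADAM 1. Mmp8 passed with no filter on low counts (adjusted p = 0.0465) and without the granule-rich cells (2.26, adjusted p = 0.00423), both by edgeR.

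UMIs of both deleted receptors were counted in neutrophils, few of them for Axl, and whether they were neutrophil transcripts was not tested. Axl had 0 and 1 UMIs in ADAM 1 and ADAM 2, against 2 and 2 UMIs in AD 1 and AD 2. Mertk was at 77.4 and 77.6 CPM in ADAM 1 and ADAM 2, against 58.0 and 91.6 CPM in AD 1 and AD 2 and microglia held 246 to 296 CPM. A Mertk UMI was found in 3 of 11 and 56 of 580 neutrophils of ADAM 1 and ADAM 2, against 2 of 30 and 13 of 136 in AD 1 and AD 2. Tyro3, the other receptor of the family, was at 0 UMIs in all 4. Microglial markers in neutrophils summed to 3533 and 3851 CPM in ADAM 1 and ADAM 2, against 6411 and 5190 CPM in AD 1 and AD 2, where microglia held 16373 to 20839 CPM, and their part in the Mertk and Gatm values was not tested. T and NK cells held 9.06 and 9.66 CPM of Mertk in ADAM 1 and ADAM 2, against 2.78 and 4.44 CPM in AD 1 and AD 2. Gatm, an enzyme of creatine synthesis on chromosome 2, which also holds Mertk, was at 310 and 233 CPM in ADAM 1 and ADAM 2, against 58.0 and 35.0 CPM in AD 1 and AD 2 (log2 fold 2.67, SE 0.47, adjusted p = 0.0837, edgeR). Its fold lay between 2.05 and 2.89 under all 9 other settings. With all libraries kept, it passed under the replicate block (2.67, adjusted p = 0.00413, edgeR), with no filter on low counts and without the granule-rich cells. It failed under DESeq2 and RLE scaling. Gatm in microglia was at 919 and 674 CPM in ADAM 1 and ADAM 2, against 92.4 and 116 CPM in AD 1 and AD 2. Its genotype difference was of like size in microglia, with a difference of -0.096 between neutrophils and microglia (SE 0.45, adjusted p = 1, edgeR).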

How the data were processed

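The authors deposited raw UMI counts for 16798 genes in 15451 cells, with no normalization, and a table of cells with library, class, doublet marks and the mitochondrial percent of UMIs that the authors computed. Per the submitters' processing notes, mm10, Seurat 3.2.1.9002 and Cell Ranger 3.1.0 were used, with no step assigned to any of them. The UMAP positions deposited by the authors, score values with no fixed unit, were not used. No source says how the authors made classes and doublet marks, and the 823 cells marked as doublets, which carry no class, were left out.

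Counts of neutrophils were summed per library, the replicate, and tested with the edgeR 4.0.16 quasi-likelihood fit in R 4.3.3 (TMM, minimum count 10, robust, Benjamini-Hochberg at 0.05). Standard errors were derived from the F statistic and the fold. CPM are plain UMIs of a gene per 1000000 UMIs of the summed cells, and the scripts were tested on simulated data. Intervals are exact 95% binomial or Poisson limits, a count of 0 allows 3 counts, and both cover counting error only. Microglia in fits are the cells with a numbered state, and elsewhere the whole class. Alternatives were DESeq2 1.42.0, RLE scaling, no filter, a replicate block, leaving out each library, other denominators and a marker rule (at least 1% S100a8 and S100a9 with a Csf3r or Retnlg UMI). For cell numbers, DESeq2 used the spread estimated for each class alone, with no sharing between classes. Members and lists were chosen with earlier results of these data known. Named genes were the class markers, the most counted members of each list, up to 25 genes highest over other classes, and called genes. Values of 1 gene of the interferon list are not reported here. Python 3.11.15, numpy 2.4.6, scipy 1.17.1, pandas 2.3.3 and matplotlib 3.10.9 were used.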

Additional observations from a re-analysis of the deposited data

Results flagged for a closer look

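The genotype difference of Isg15 on the log2 scale was lower by -2.84 in neutrophils than in microglia, that of Slfn5 by -2.77 and that of Irf7 by -2.25, each called by the test of that difference (edgeR, all libraries). The same test called 6 more genes, named after their values were seen, which are neutrophil genes: Anxa1 (-3.38), Camp (-5.87), Cd24a (-2.99), Chil3 (-3.55), Ltf (-8.16) and Ngp (-7.26). None of these 9 kept its call without ADAM 2, without AD 1 or without AD 2, and all 9 kept it without ADAM 1. For the 6, microglial UMIs lay mostly in ADAM 2, where Ngp had 132 UMIs, against 0 in ADAM 1 and 1 and 0 in AD 1 and AD 2.

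Cells that the authors marked as doublets were outside every comparison, and 94 of them in ADAM 2 met the marker rule for neutrophils. The number was 3 in ADAM 1, and 1 and 10 in AD 1 and AD 2.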

How the results depend on the processing

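The log2 fold of neutrophil number kept its sign under other denominators, the marker rule, DESeq2 and the replicate block (0.56), and spanned -2.65 to 3.02 when 1 library was left out. Genes called in neutrophils were 0, but 1 under DESeq2, 11 with no filter, 15 without granule-rich cells, 14 under the replicate block, and 3 to 41 with 1 library left out (41 without ADAM 1, 27 without ADAM 2, 14 without AD 1, 3 without AD 2), where a lone library is taken to vary like the other genotype. Same-numbered libraries share only a number, and their deviations correlated at 0.027 over 2792 genes. The median of the interferon list lay between -1.58 and -0.98 under these settings, with every tested gene negative except without AD 2 (9 of 11). Folds in microglia with 1 library left out spanned -1.19 to 4.36 for S100a8, -1.20 to 5.14 for S100a9 and -2.40 to 5.13 for Retnlg, negative without ADAM 2 alone, and the 4 class markers gave 0 calls in each setting. Shares with an Isg15 UMI were 28.1% in ADAM 2, 53.3% in AD 1 and 70.6% in AD 2 without thinning, against 10.0%, 33.3% and 44.1% thinned. The cause of these moves was not tested. With 11 neutrophils in ADAM 1, a gene at 0 there may reach 77.4 CPM.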
